A study of Mus musculus with 2 samples.

Results

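The part of mouse chromosome 7 that lies before 58 Mb held 1574 of the 83676 regions in which chromatin immunoprecipitated with an antibody against phosphorylated HLXB9 was enriched. A region, called a peak here, belonged to this part if the midpoint between its start and end on build mm9 was below that position. The remaining 2992 peaks of chromosome 7 served as the comparison. The dividing position had itself been chosen by peak width: it was placed where the widths of chromosome 7 peaks with a score from 30 to 40 differed most. Width, and with it the number, score and spacing of the same peaks, is therefore described below and not tested.

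The peaks came from MIN6-4N cells, a mouse insulinoma line grown in low glucose medium and transfected with a plasmid, pcDNA3.1-myc-his-HLXB9, from which HLXB9 was overexpressed under the strong viral promoter of that vector. Chromatin was prepared 48 hours later. There was 1 library from the immunoprecipitation (antibody anti-HB9PO4) and 1 input library made without antibody, both from transfected cells and sequenced to 36 bp. No library of untransfected cells or of a control antibody was analysed here, so enrichment cannot be tied to the phosphorylated protein alone, and no value has a replicate error.

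HLXB9 (HB9, MNX1) is a transcription factor of the homeodomain class, with roles in the formation of the pancreas and in the identity of β-cells. Homeodomain proteins bind short AT-rich sequences, and each has many potential sites across the genome. Mouse chromosomes carry their centromere at one end, where coordinates begin, so the peaks described here lie on the centromeric side of chromosome 7. That side of the chromosome is known for large tandem families, among them vomeronasal receptor, zinc finger and kallikrein genes. No annotation or sequence of mm9 was used here, so peaks were not assigned to genes and are given by position.

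Peaks before 58 Mb were wide. Their median width was 914 bp (95% interval of the median 880 to 962 bp), against 611.5 bp (602 to 623) from 58 Mb onward and 656 bp (654 to 659) on the other autosomes. The difference was larger toward the upper end of the distribution. The 10th percentile was 457.3 bp before and 396 bp after the position, a ratio of 1.15, and the ratio of the medians was 1.49. The 90th percentile was 2153 bp before and 1064 bp after it, a ratio of 2.02. Peaks narrower than 500 bp made up 13.4% of the peaks before 58 Mb and 30.6% of those after it. Widths before 58 Mb ran from 261 to 6930 bp.

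Peaks of at least 2 kb numbered 197 of 1574 before 58 Mb, or 12.5% (Wilson 95% interval 11.0% to 14.2%), where the whole list had 1.74%. From 58 Mb onward 23 of 2992 peaks were that wide, or 0.769% (0.513% to 1.15%). This part held 1.88% of all peaks of the list but 13.5% of those of 2 kb or more. Peaks of at least 3 kb numbered 63 (4.00%) before and 4 (0.134%) after the position, where the whole list had 0.302%. The wide peaks accounted for 30.9% of the sequence covered by peaks before 58 Mb and 2.91% of that after it. Peaks covered 3.36% of the span from first to last peak before 58 Mb, against 2.18% from there on. All of these shares rest on the widths that placed the boundary, and they describe it.

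**Figure D1:**
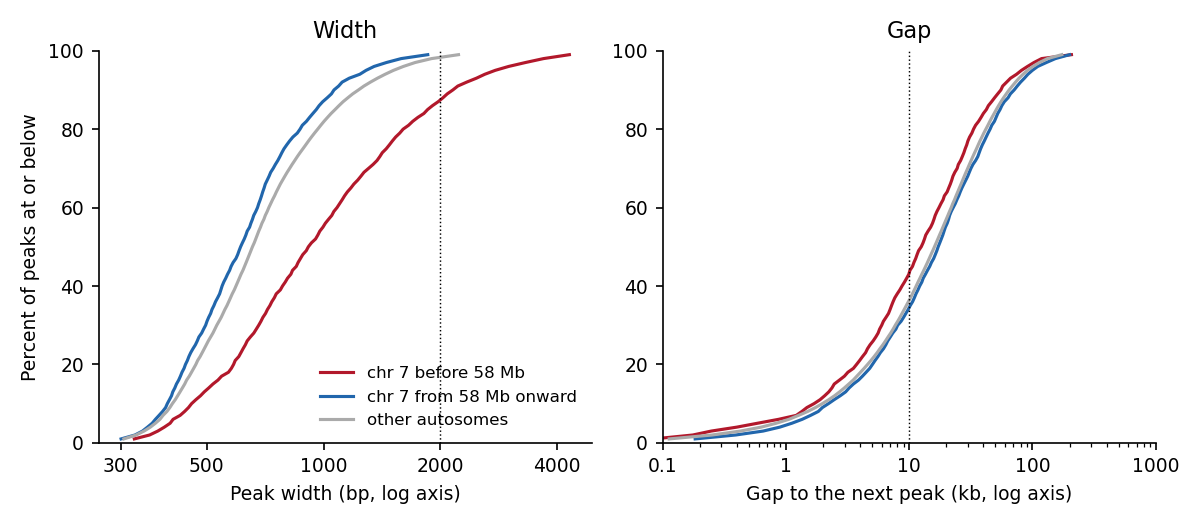
Cumulative share of peaks (percent) by peak width in bp (left, log axis, dotted line at 2000 bp) and by gap to the next peak in kb (right, log axis, dotted line at 10 kb), from the 1st to the 99th percentile, for chromosome 7 before 58 Mb, chromosome 7 from 58 Mb onward and the other autosomes. The widths before 58 Mb lie to the right of the others, more so toward the top, where the 90th percentiles are 2153 and 1064 bp on chromosome 7, and the gaps lie to the left of the others at the dotted line, where 43.3% of peaks before and 34.4% after 58 Mb are reached, but not at the 99th percentile.

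The widest peaks before 58 Mb came from a few sections. The widest, with 6930 bp at chr7:52957643-52964572, ranked 2nd in the whole list and had a score of 31.53. The score is the authors' own and was taken as the negative log10 of a p-value times 10, so this peak lay close to the lower limit of 30. The next widest was a 6828 bp peak at chr7:19675728-19682555 with a score of 103.9. A 6323 bp peak at chr7:52532185-52538507 scored 44.39, and a 6096 bp peak at chr7:26495509-26501604 scored 116.2. These were the 4 widest, and they lay in 3 separate sections of the chromosome.

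The next 6 were between 4753 and 5898 bp wide. A 5898 bp peak at chr7:28115670-28121567 scored 146.0 and was the only one among both the 10 widest and the 10 highest-scoring peaks before 58 Mb. Peaks of 5680 bp (chr7:29672407-29678086) and 5095 bp (chr7:28440572-28445666) lay within 2 Mb of it, with scores of 42.40 and 32.85. A 5082 bp peak at chr7:52260501-52265582 scored 37.08. The last of the 10 lay in the same window of 1 Mb, at chr7:26069577-26074469 (4893 bp, score 81.63) and chr7:26054471-26059223 (4753 bp, score 41.08). The 10 widest thus ranged over much of the score scale, with a median of 43.40 against 41.35 for all peaks before 58 Mb. Width and score had a Spearman correlation of 0.29 over the 1574 peaks and of 0.38 over the 2992 after the position, both across peaks of the same libraries. A score of 50 or more was found in 46.7% of the peaks of at least 2 kb and in 11.4% of those under 500 bp. Of the 197 peaks of at least 2 kb, 55 (27.9%) had a score under 40.

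Scores were moderately higher before 58 Mb than after it. A score of 50, which stands for a p-value of 1e-05, was met or passed by 483 peaks, or 30.7% (28.5% to 33.0%), against 22.6% (21.2% to 24.2%) from 58 Mb onward and 24.1% in the whole list. The share was 28.8% (26.6% to 31.1%) on chromosome 4 beyond 128 Mb and 27.3% (25.3% to 29.4%) on chromosome 15 beyond 72 Mb. On chromosome 1 it was 24.1%. Differences between these parts were not tested. A score of 100 was met or passed by 48 peaks, or 3.05% (2.31% to 4.02%), against 51 peaks, or 1.70% (1.30% to 2.23%), after the position and 1.66% in the whole list. Median scores were close, at 41.35 before and 39.02 after. The highest score before 58 Mb was 263.1, below the 526.8 that was the highest after it. Among the 100 widest peaks of the whole list 33 lay before 58 Mb on chromosome 7, and among the 100 highest-scoring ones 2 did.

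The highest score before 58 Mb belonged to a 3513 bp peak at chr7:19649596-19653108, which ranked 43rd in the list. It was followed by a 3068 bp peak at chr7:29106429-29109496 with a score of 225.6. The third, at chr7:4706511-4707831, was 1321 bp wide and scored 188.1, and the fourth, at chr7:12595596-12596474, was 879 bp wide and scored 174.6. Both of these lay before the empty stretch that began at 14907392, where none of the 161 peaks reached 2 kb. The other 6 scored from 143.1 to 168.0 and were 1684 to 5898 bp wide. They were at chr7:52272238-52274288, chr7:29908258-29911480, chr7:28115670-28121567, chr7:29023887-29025570, chr7:19608614-19610825 and chr7:20047927-20050744. Of the 10, 3 lay between 19000001 and 21000000 and 4 between 28000001 and 32000000.

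Within every range of scores the peaks before 58 Mb were wider. At a score from 30 to 40 the medians were 795 bp (743 to 841) before and 532 bp (520 to 545) after the position, and these are the peaks from which the position was found. At 40 to 50 they were 915.5 and 646 bp, at 50 to 70 they were 1064.5 and 720.5 bp, and at 70 to 100 they were 1290 and 877.5 bp. At a score of 100 or more the 48 peaks before 58 Mb had a median of 1857 bp (1321 to 2212) and the 51 after it 1127 bp (989 to 1334). The ratio of the medians was between 1.42 and 1.65 in all 5 ranges. In the highest range 45.8% of peaks were at least 2 kb wide before 58 Mb, against 7.84% after it and 15.0% on the other autosomes.

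**Figure D2:**
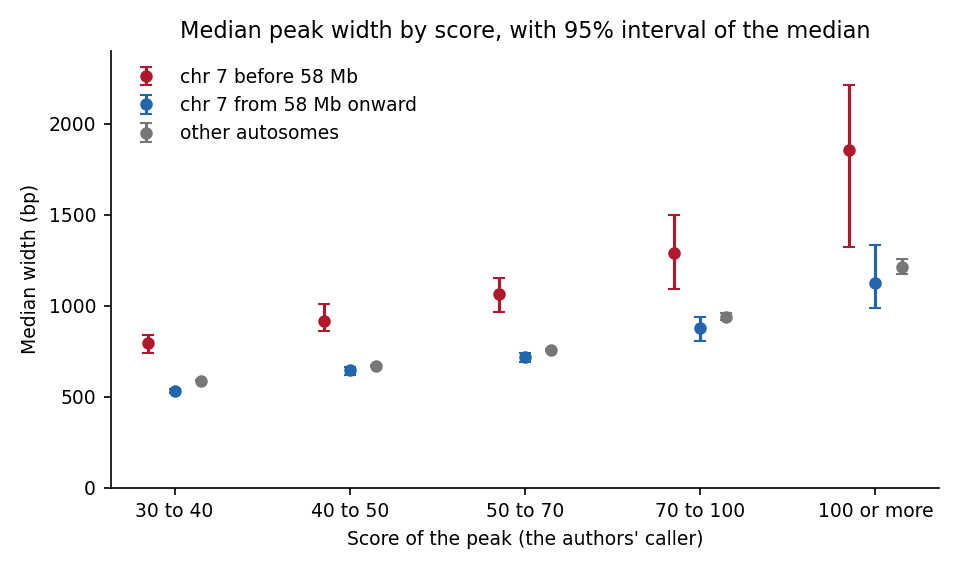
Median peak width in bp (points, with the 95% interval of the median) in 5 ranges of the authors' score for chromosome 7 before 58 Mb, chromosome 7 from 58 Mb onward and the other autosomes. Widths rise with score in all 3, and the points before 58 Mb are highest in each range, from 795 bp at a score of 30 to 40 to 1857 bp at 100 or more.

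The number of peaks per Mb was slightly lower before 58 Mb in the list as a whole. Over the span from first to last peak there were 28.7 peaks per Mb (95% Poisson interval 27.3 to 30.2) before and 31.7 (30.5 to 32.8) after the position, a ratio of 0.907 (exact 95% interval 0.853 to 0.965). Without the stretches of 1 Mb or more that held no peak, the densities were 39.2 and 31.7 peaks per Mb and the ratio 1.24 (1.17 to 1.32). The other autosomes had 34.8 peaks per Mb, and 35.2 without such stretches, so the side after 58 Mb was sparser than they were. On chromosome 7 all such stretches lay before 58 Mb, so leaving them out could only raise that side. At a minimum score of 50 the ratio was 1.23 with these stretches included. The direction thus depends on both settings. The intervals express only counting error and are narrower than the true uncertainty, since the variance of the counts per 1 Mb window was 19.0 times their mean before 58 Mb and 7.59 times after it.

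Stretches of 1 Mb or more without a peak numbered 5 before 58 Mb and 0 after it, where the longest was 0.968 Mb (83209059 to 84177216). The 5 stretches together took 14.7 Mb, or 26.8% of the span from first to last peak. The longest spanned 7.06 Mb (39326010 to 46383827). One of 3.60 Mb lay nearer the centromere (7231418 to 10836028), and one of 1.10 Mb followed at 14907392 to 16003210. The last 2, of 1.25 Mb (20651291 to 21896875) and 1.67 Mb (21897376 to 23563094), were parted by a single 500 bp peak with a score of 31.82. The autosomes had 17 such stretches in all, so that 29.4% of them lay in 2.27% of the autosomal span. Assembly gaps and sequence to which short reads cannot be assigned were not removed from these stretches, and their part in them was not tested. Of the 54 complete windows of 1 Mb before 58 Mb, 10 had no peak (18.5%, Wilson interval 10.4% to 30.8%), against 0 of 94 after it and 11 of 2240 (0.491%) on the other autosomes. That interval treats windows as independent, though most of the empty ones adjoin within the same stretches, so it is too narrow.

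The empty stretches cut the peaks before 58 Mb into 5 blocks, besides the single peak, and the first 2 had lower median widths than the other 3. The first block (3194215 to 7231417) had 104 peaks with a median width of 583 bp (529 to 621), and the second (10836029 to 14907391) had 57 peaks with a median of 461 bp (409 to 574). Neither had a peak of 2 kb. Both lay on the low side of the boundary, yet their medians were below the 611.5 bp of the peaks beyond it. The second block was also sparse, with 14.0 peaks per Mb (10.6 to 18.1).

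The other 3 blocks held all 197 peaks of 2 kb or more. The block from 16003211 to 20651290 had 228 peaks at 49.1 per Mb, with a median of 920.5 bp (811 to 1030) and 37 wide peaks (16.2%). The block from 23563095 to 39326009 had 673 peaks at 42.7 per Mb, a median of 1026 bp (971 to 1091) and 100 wide peaks (14.9%). The block from 46383828 to 57970805 had 511 peaks at 44.1 per Mb, a median of 954 bp (884 to 1034) and 60 wide peaks (11.7%). Scores of 50 or more were held by 34.6% of peaks in the first block, 19.3% in the second and, in the other 3 in order of position, 36.4%, 30.5% and 29.0%. The block with the narrowest peaks thus had the lowest share, and the first block, also narrow, had the next to highest.

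**Figure D3:**
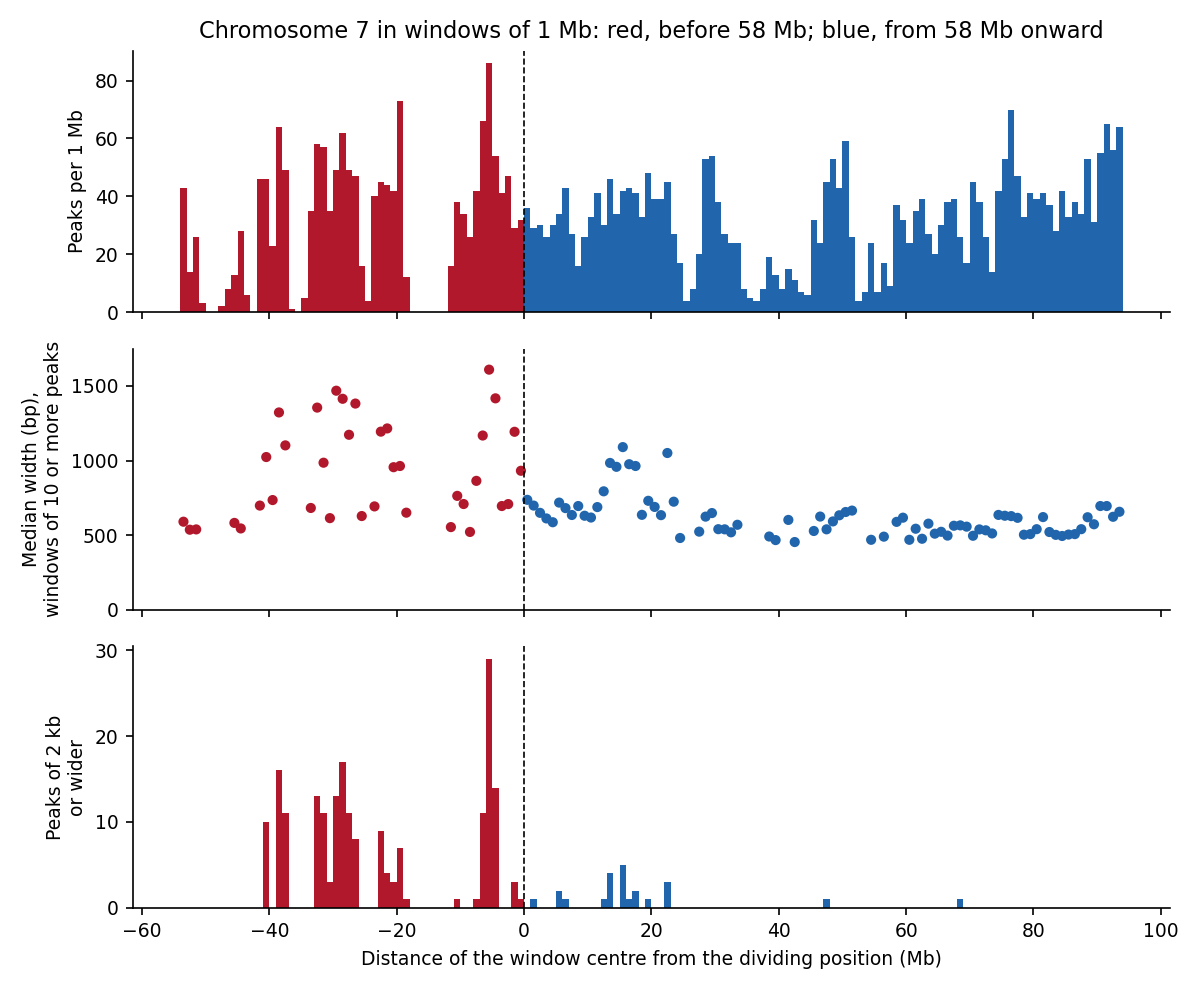
Peaks per 1 Mb window (top), median peak width in bp of windows with 10 or more peaks (middle) and peaks of 2 kb or wider per window (bottom) along chromosome 7, by distance of the window centre from the dividing position in Mb (dashed line at 0), red before and blue from 58 Mb onward. The wide peaks stand in separate groups of windows on the left, up to 29 in a window, and none are found in the windows farthest to the left.

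Wide peaks were further gathered into few windows inside these blocks. At least 5 of them lay in each of 14 windows, which together held 180 of the 197 wide peaks (91.4%) and 51.1% of all peaks before 58 Mb. Where windows adjoined, they formed 7 sections. The section from 51000001 to 54000000 had 54 wide peaks among 206 (26.2%), and peaks covered 11.4% of it. The section from 28000001 to 32000000 had 49 among 207 (23.7%), that from 19000001 to 21000000 had 27 among 113 (23.9%), and that from 25000001 to 27000000 had 24 among 115 (20.9%). The single windows starting at 17000001, 35000001 and 38000001 had 10, 9 and 7 wide peaks. The choice of at least 5 was made after the values were seen, and the share of 91.4% follows in part from it. On the other autosomes 68 of 2240 windows had at least 5 wide peaks, with 527 of the 1234 wide peaks there. After 58 Mb 1 of 94 windows did, with 5 of 23. The remaining 769 peaks before 58 Mb had a median of 709 bp, with 17 (2.21%) of 2 kb or more. That share is low by construction, since the windows were set apart for their wide peaks.

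The 5 windows with most peaks were all among these 14. The window from 52000001 to 53000000 had 86 peaks with a median of 1609 bp, of which 29 were at least 2 kb wide and 32 had a score of at least 50, and peaks covered 16.1% of it. The window from 38000001 to 39000000 had 73 peaks with a median of 964 bp, and that from 51000001 to 52000000 had 66 with a median of 1168 bp. The windows starting at 19000001 and 29000001 had 64 and 62 peaks with medians of 1322.5 and 1414 bp. Beyond 58 Mb the densest window (134000001 to 135000000) had 70 peaks with a median of 628.5 bp and no peak of 2 kb. The 4 that followed it there, with 56 to 65 peaks each, had medians from 624 to 696 bp and also no peak of 2 kb.

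Windows with like numbers of peaks were compared next. In windows with 1 to 19 peaks the median widths were 512.5 bp (464 to 589) before 58 Mb, 497 bp (472 to 516) after it and 496 bp (490 to 502) on the other autosomes. With 20 to 39 peaks they were 704 bp (679 to 745), 585.5 bp (573 to 604) and 598 bp (595 to 601). With 40 to 59 peaks they were 978 bp (930 to 1030), 665 bp (646 to 688) and 693 bp (690 to 697). With 60 or more peaks they were 1261 bp (1155 to 1403), 658 bp (626 to 690) and 832 bp (822 to 841). In that class 22.8% of peaks were at least 2 kb wide before 58 Mb, against 0 of 199 peaks after it and 4.06% on the other autosomes. It rested on only 5 windows before 58 Mb and 3 after it, against 179 on the other autosomes. The window from 52000001 to 53000000 alone held 29 of its 80 wide peaks before 58 Mb. The intervals treat peaks as independent and leave out differences between windows. The medians on the 2 sides of the position were thus 15.5 bp apart in the sparsest windows and 603 bp apart in the densest, differences that were not tested. Across windows with 10 or more peaks, the Spearman correlation of peak number and median width was 0.78 over 37 windows before the position, 0.43 over 81 windows after it and 0.72 over 2125 windows of the other autosomes. This is a description, since all windows come from the same pair of libraries.

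**Figure D4:**
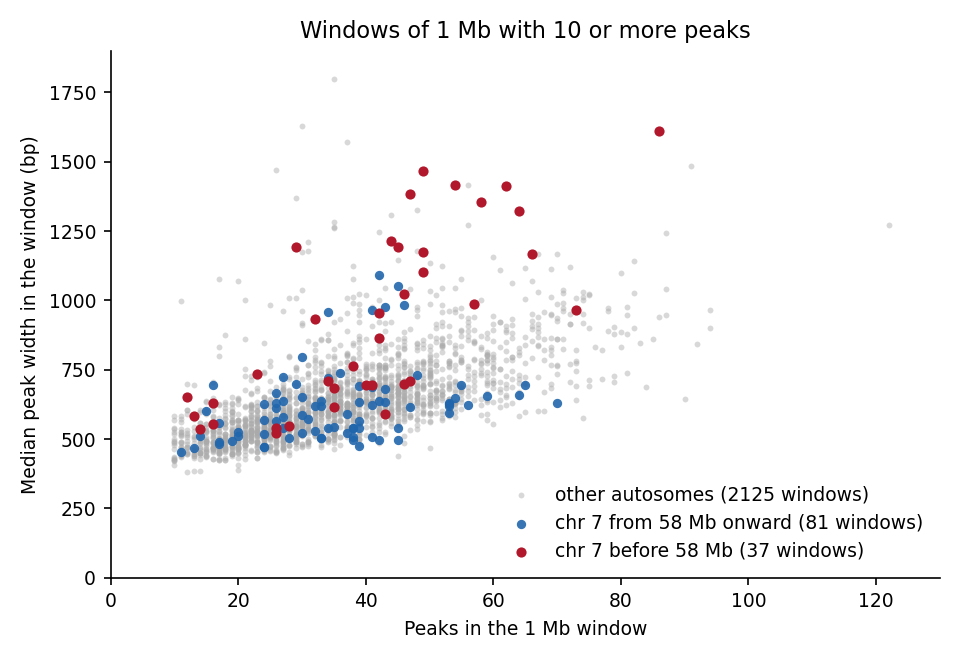
Median peak width in bp against the number of peaks in windows of 1 Mb with 10 or more peaks, for chromosome 7 before 58 Mb (37 windows), chromosome 7 from 58 Mb onward (81) and the other autosomes (2125). Of the windows with 40 or more peaks, 13 of 22 before 58 Mb and 2 of 27 from 58 Mb onward have a median of at least 1000 bp, and sparse windows of all 3 lie together.

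Such wide windows were not limited to this stretch of chromosome 7. Of 2243 autosomal windows with 10 or more peaks, the 20 with the greatest median width included 7 from before 58 Mb. The greatest median, 1797 bp over 35 peaks, was in the chromosome 1 window from 134000001 to 135000000. Also among the 20 were the adjoining chromosome 10 windows starting at 79000001 and 80000001. They had 122 and 91 peaks with medians of 1273.5 and 1484 bp. Peaks of 2 kb or more numbered 18 and 22 in them, and peaks covered 17.3% and 15.1%. Medians of at least 1000 bp were found in 14 of 37 windows before 58 Mb (37.8%), 2 of 81 after it and 69 of 2125 on the other autosomes (3.25%). Chromosome 1 and the distal parts of chromosomes 4 and 15 also had wide peaks and gave other mixtures of width and number. Chromosome 4 beyond 128 Mb had almost the same median, 916.5 bp (891 to 944), with 58.6 peaks per Mb, but a lower share of wide peaks, 4.26%. Chromosome 15 beyond 72 Mb had a median of 838 bp, 57.3 peaks per Mb and 3.83% wide peaks, and chromosome 1 had 756 bp, 33.8 peaks per Mb and 4.47%. The 99th percentile of width was 4298 bp on chromosome 7 before 58 Mb, 2719 bp on distal chromosome 4, 2851 bp on distal chromosome 15 and 3061 bp on chromosome 1. Peaks covered more of the span on distal chromosomes 4 (5.97%) and 15 (5.50%) than on chromosome 7 before 58 Mb (3.36%), where the empty stretches count in the span. On chromosome 1 they covered 3.11%. These differences were not tested, since the parts were chosen with these data known and all come from the same pair of libraries.

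Neighbouring peaks lay closer together before 58 Mb than after it, although over the whole span, empty stretches included, the number per Mb was lower. The next peak began within 10 kb of the end of a peak for 681 peaks, or 43.3% (40.8% to 45.7%), against 34.4% (32.7% to 36.1%) after the position and 36.3% in the whole list. The median gap was 12.5 kb before and 17.2 kb after. Spacing was closer still on chromosome 4 beyond 128 Mb (52.0% within 10 kb, median gap 9.46 kb) and chromosome 15 beyond 72 Mb (48.6%, 10.4 kb). On chromosome 1 it was wider (31.5%, 18.7 kb). Wide peaks shorten the gaps between them by their own length. By distance between midpoints the shares within 10 kb on chromosome 7 were 39.3% before and 32.7% after 58 Mb. Gaps fell with width before 58 Mb: the median gap after a peak was 21.6 kb for peaks under 500 bp and 8.60 kb for those of 2 kb or more. After 58 Mb the median gap also fell at first, from 20.8 kb for peaks under 500 bp to 15.8 kb at 500 to 1000 bp. It was 15.4 kb at 1000 to 2000 bp. Only for peaks of 2 kb or more was it longer there, at 21.2 kb, which rests on 23 peaks.

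Joining peaks up to 1 kb apart turned the 1574 peaks into 1470 regions, of which 90 held 2 peaks, 5 held 3 and 1 held more. The last was a run of 5 peaks at chr7:12595596-12601360, in the sparse second block. Its peaks were 644 to 1748 bp wide, with scores of 174.6, 32.32, 39.39, 88.17 and 96.26 in order of position. After joining, 16.0% of regions before 58 Mb and 2.70% after it were at least 2 kb wide, and the medians were 962 and 620 bp.

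The position of 58 Mb was not a sharp edge. The last 3 peaks before it, at chr7:57907230-57908196, chr7:57917203-57917688 and chr7:57969909-57970805, were 967, 486 and 897 bp wide. The first 3 after it, at chr7:58035482-58036356, chr7:58050190-58050966 and chr7:58070012-58070456, were 875, 777 and 445 bp wide. In the last windows before the position, starting at 56000001 and 57000001, the medians were 1193 and 932 bp, over 29 and 32 peaks. The windows just before those, starting at 54000001 and 55000001, had medians of 696 and 709 bp and no peak of 2 kb. In the first windows after the position, starting at 58000001 and 59000001, the medians were 737.5 and 699 bp. Widths thus did not fall steadily toward the position. With the position at 57 or 59 Mb the ratio of the medians was 1.49 and 1.48. Since 1542 and 1610 peaks then lay before it, against 1574, few peaks changed sides. The ratio could thus hardly change, and it does not bear on the sharpness of the edge.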

How the data were processed

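The data are 1 list of peaks in BED layout without a header. Per the submitters' processing notes, MACS (version written as 1.42) called the peaks on mm9. Not given in the sources used here are the aligner, filters, numbers of tags, error rates and the control used for calling, and so the depth is unknown. The score deposited by the authors was used only within this list. That the list sets the immunoprecipitation against the input was inferred from the 2 libraries. Width is end minus start, and printed coordinates are 1-based.

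Members and comparisons were chosen with earlier results of these data known. Shares have Wilson intervals, medians order-statistic intervals from the binomial distribution, densities exact Poisson intervals and their ratio an exact conditional interval, all at 95%. They treat peaks, or windows where windows were counted, as independent. No test was made, since there was 1 library per group and width had placed the boundary. Windows of 1 Mb were counted by midpoint. Regions named are the 10 widest and 10 highest-scoring peaks, the 5 densest windows, stretches of 1 Mb or more without a peak, runs of at least 4 peaks and 3 peaks on each side of 58 Mb. Sections of wide windows and the comparison by window density were added after the values were seen. The only gene table used here was for another build (GRCm38.p6), so genes and sequences are not given. Scripts were tested on simulated data. Computation used scipy 1.17.1, pandas 2.3.3, numpy 2.4.6 and, for figures, matplotlib 3.10.9, under Python 3.11.15.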

Additional observations from a re-analysis of the deposited data

How the results depend on the processing

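At a minimum score of 50 there were 483 peaks before 58 Mb, with medians of 1147 bp before and 768 bp after, 19.0% of peaks at least 2 kb wide, 18.6% with the next peak within 10 kb and a longest empty stretch of 7.25 Mb. The density ratio turned from 0.907 to 1.23 at that score and to 1.24 without the stretches of 1 Mb or more. Joining peaks within 1 kb gave 16.0% of at least 2 kb and 39.3% with a neighbour within 10 kb. Distance between midpoints, an alternative added after seeing the data, also gave 39.3%. At a minimum score of 100, also added later, the medians were 1857 and 1127 bp and the wide share 45.8%. The positions 57 and 59 Mb gave 1542 and 1610 peaks and kept the other 8 values within their intervals or unchanged. Few peaks changed sides with these moves, so little change could arise. The share of empty windows, the one value computed with windows of 0.5 Mb, stayed within its interval, as did the median width before 58 Mb and the wide share, the values computed without the window from 52000001 to 53000000. No paired analysis was possible because there was 1 library per group, and none could be left out. Since tag numbers are unknown, empty stretches show only that no region there met the authors' limit.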

Other observations

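A second, weaker group of wide peaks lay beyond 58 Mb, between 70 and 76 Mb, a section chosen after its values were seen. Its 236 peaks had a median width of 969.5 bp (95% interval of the median 921 to 1051), and 13 of them (5.51%) were at least 2 kb wide. The other 2756 peaks from 58 Mb onward had a median of 595 bp (580 to 606), with 10 wide peaks (0.363%). A score of 50 was met or passed by 26.3% of peaks in the section and 22.3% of the others.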
